A study of Homo sapiens with 8 samples.

Results

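The genes described here are 10 members of the ETS family of transcription factors: SPDEF, ELF3, ELF5, EHF, ETV1, ETV4, ETV5, ETV6, ETS2 and ERF. They were taken by gene symbol from a table of read counts for 30434 genes, in which all 10 had a row. RNA had been sequenced from SKBR3, a human breast cancer line that carries many copies of the receptor gene ERBB2 (HER2). The 4 control libraries came from cells whose genotype is given as WT. The other 4 came from a stable FOXA1 knockdown of the same line, made with lentiviral short hairpin RNAs against FOXA1, a pioneer factor that opens chromatin in luminal breast cells. Both groups were grown in the same serum-containing medium. The labels do not say whether the controls carried a vector, whether the knockdown line was 1 clone or a pool, or whether the replicates were separate cultures, so p-values measure the spread between these libraries, which may be technical.

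ETS factors bind DNA through a conserved domain that reads a GGAA core, and most are activators; ETV6 and ERF are repressors. SPDEF, ELF3, ELF5 and EHF are largely epithelial: SPDEF drives secretory differentiation, ELF5 the milk-producing fate of mammary cells, and ELF3 and EHF are factors of luminal and barrier epithelia. ETV1, ETV4 and ETV5 form the PEA3 group, whose genes are repressed by CIC and released when ERK is active. ERK phosphorylates ERF and drives it out of the nucleus, and it also phosphorylates ETS2.

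FOXA1 itself was at 3.96 CPM ± 0.34 in knockdown against 192 CPM ± 1.65 in control (n = 4 each, SD; CPM is counts per 1000000 after scaling of the libraries), or 2.06% of the control level. Library totals lay between 19087878 and 23786684 counts, at which 3 counts correspond to 0.123 to 0.153 CPM. Control replicate 3 stood somewhat apart from the other controls (chi-square per degree of freedom 4.7 to 6.05 in its pairs, against 2.13 to 2.34 in the other control pairs), and all 10 genes kept their call and direction without it. All 7 marker genes of the line and of luminal epithelium were well expressed in every library, with a summed level of 16643 to 18546 CPM in control and 11101 to 11977 CPM in knockdown. Within that sum ERBB2 (18.3% of control), GRB7 and KRT19 fell, while KRT8, KRT18, EPCAM and TFAP2A rose. The 10 analysed markers of leukocytes, endothelium and fibroblasts summed to 27.4 to 29 CPM in control and 29.7 to 32 CPM in knockdown, and the leukocyte marker PTPRC had at most 3 counts in any library. Markers of endothelium and fibroblasts moved both ways: VWF (from 5.22 CPM to 0.845 CPM) and COL1A1 fell, and CDH5 (from 16.1 CPM to 20.1 CPM) and COL3A1 (from at most 1 count to 90 to 104) rose. COL1A2 and DCN, like PTPRC, stayed at 3 counts or fewer in every library. The part of these markers in the results below was not tested.

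Each gene passed the filter on low counts, which enough counts in 1 group alone can satisfy. All 10 were called by edgeR's quasi-likelihood test at an adjusted p under 0.05, 7 lower and 3 higher in knockdown. Over all 16430 genes tested the share called was 77.1% (37.7% lower and 39.4% higher), so a call alone sets the members apart little. Calls of 2-fold or more numbered 6 among the 10 (5 lower, 1 higher), where the share over all tested genes was 28.3% (13.4% lower and 14.9% higher). Of these 6, SPDEF, ELF5 and ETV1 would not have passed the filter on their knockdown libraries alone, nor ETV5 on its controls alone. The large changes of these genes are thus not independent of the filter. The median log2 fold change of the 10 genes was -1.20 and the median size regardless of direction 2.75, against 0.02 and 0.51 over all tested genes. The 10 genes were chosen with earlier results of these data known, so these figures do not describe ETS genes in general. Over all 22 tested ETS genes, 9 calls (40.9%) were of 2-fold or more, and the medians were 0.06 and 0.75. CPM values did not overlap between the groups for 8 of the 10 genes (72.0% of all tested genes). In bulk RNA, fewer cells expressing a gene and less RNA per cell cannot be told apart.

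**Figure D1:**
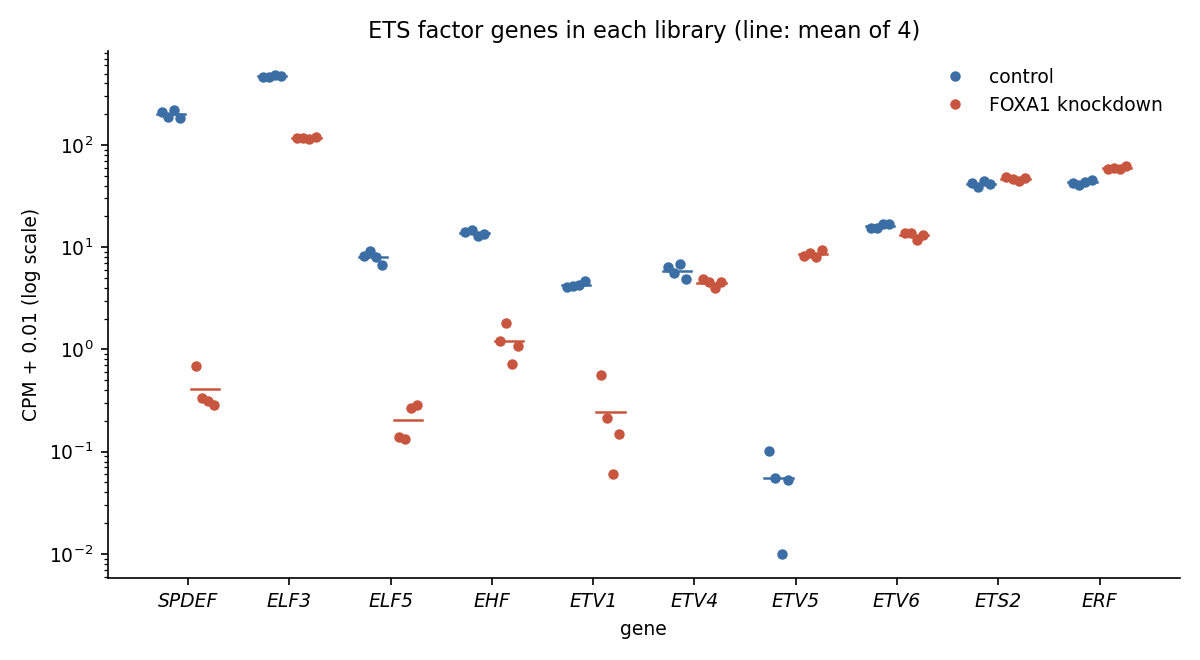
Level of each of the 10 genes in each library, as CPM + 0.01 on a log scale; dots are libraries (4 control, blue; 4 knockdown, red) and lines are group means. SPDEF, ELF3, ELF5, EHF and ETV1 lie far lower in knockdown, ETV5 far higher, and the other 4 genes close together.

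**Figure D2:**
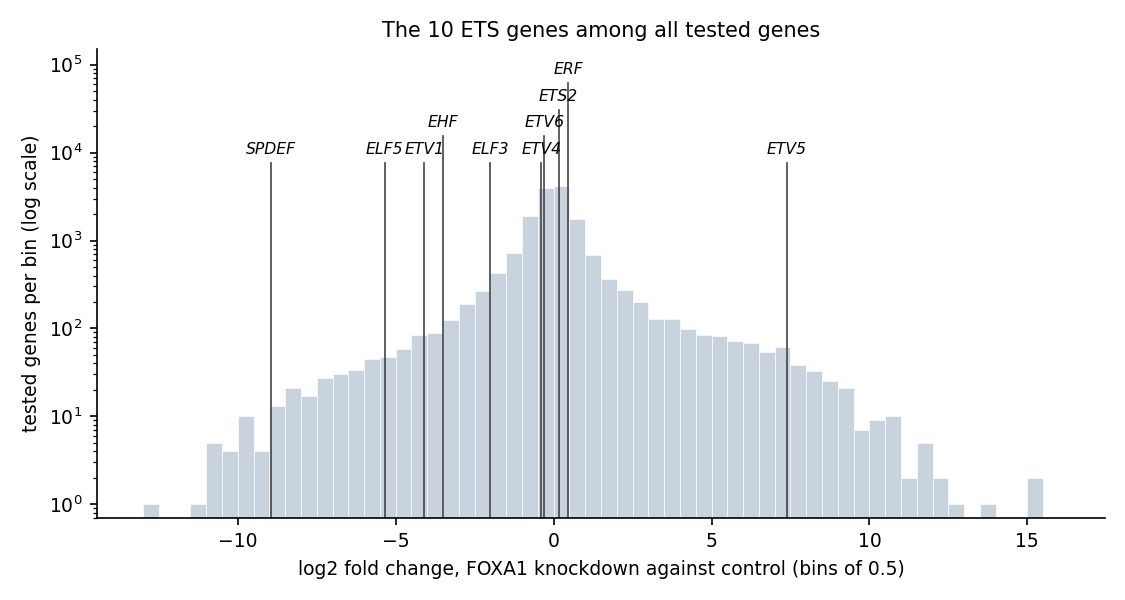
Number of tested genes in bins of 0.5 of fitted log2 fold change (log scale) over 16430 genes, with the 10 ETS genes marked by lines. SPDEF at -8.94 lies in the lower tail and ETV5 at 7.39 in the upper tail, while ETV4, ETV6, ETS2 and ERF lie in the central bins.

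The epithelial ETS genes fell together, SPDEF most. SPDEF (ENSG00000124664.11) lies on the minus strand of chromosome 6, at 34537802 to 34556333 (positions here and below are from GENCODE 29, build GRCh38). The controls, in the order of their replicate numbers, gave 4598, 4100, 4621 and 4299 SPDEF counts, and the knockdown libraries 16, 8, 6 and 6. The highest knockdown library, replicate 1, still lay far below the lowest control. The mean went from 200.3 CPM ± 17.3 to 0.398 CPM ± 0.189 (n = 4 each, SD), or 0.199% of control. At a log2 fold change of -8.94 (SE 0.287, edgeR adjusted p = 5.44e-16), SPDEF ranked 29 from the lowest among the 16430 tested genes. A gene of this abundance was thereby brought to near the floor of detection.

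ELF3 (ENSG00000163435.16, chromosome 1, 202007945 to 202017188, plus strand), the most abundant of the 10 in CPM, kept a substantial level. It had 465, 463, 487 and 471 CPM in the control libraries and 118, 117, 115 and 119 CPM in the knockdown libraries. The groups were widely separated and each was tight, and ELF3 in knockdown was at 24.9% of control (4.01-fold lower, with a log2 SE of 0.0202, edgeR adjusted p = 1.50e-25). In knockdown SPDEF, ELF5 and EHF were all below 2 CPM in every library, far under ELF3. Its exons share 664 bp with ELF3-AS1 on the opposite strand (mean 552.62 counts), and whether counting used strand is not stated.

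ELF5 and EHF are neighbours on chromosome 11, on opposite strands, with 107 kb and no other counted gene between them. ELF5 (ENSG00000135374.11, 34478793 to 34513805) had 178, 204, 169 and 154 counts in control and 3, 3, 5 and 6 in knockdown, or 8.02 CPM ± 1.08 against 0.196 CPM ± 0.0819 (n = 4 each, SD). EHF (ENSG00000135373.13, 34621093 to 34661057) had 307, 321, 274 and 316 counts in control and 28, 44, 14 and 23 in knockdown, or 13.8 CPM ± 0.663 against 1.19 CPM ± 0.454 (n = 4 each, SD). Every knockdown library lay below every control library for both genes. The log2 fold changes were -5.35 for ELF5 (SE 0.304, edgeR adjusted p = 8.14e-18) and -3.50 for EHF (SE 0.27, edgeR adjusted p = 3.26e-16). The 50 tested genes nearest to each had a median log2 fold change of -0.19, so the surrounding genes did not share falls of this size.

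The exact two-sided permutation test over the 70 divisions of the libraries gave p = 0.0286, the smallest that 4 against 4 allows, for each of the 8 genes whose groups did not overlap.

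Promoters were examined because the epithelial genes fell together when a DNA-binding factor was reduced. RefSeq promoter sequences (GRCh38.p14) were found for 8 of the 10 genes; ETV4 and ETV5 are named only. In the 250 bases before the start site, the forkhead motifs TGTTTAC and TATTTAC and the ETS motifs CCGGAAG and CAGGAAG were searched on both strands; no 2 of these motifs share letters where they were found. A forkhead motif was present in SPDEF (beginning 49 bases before the start) and ELF5 (beginning 193 bases before it), 2 of the 8 genes, against 5.35% of 27305 promoters. An ETS motif was present in ELF5 alone of the 8 (18.6% of all promoters). Among 14 other ETS genes with a promoter sequence, 0 had a forkhead motif and 5 an ETS motif. Whether these motifs have a part in the changes was not tested. A match is a run of letters and does not show binding, and the start site used in these cells is not known from the counts. The stretches below, 5′ to 3′ and ending at the RefSeq start or, where it comes sooner, at the first base inside any GENCODE 29 exon, show the pair with a forkhead motif, the neighbour EHF without one, and ERF as a gene that rose; the RefSeq starts of ELF5 and EHF lie inside the gene spans given above. Capitals mark forkhead motifs, and in ELF5 also the ETS motif at the right-hand end.
SPDEF chr6:34556334-34556579, minus strand: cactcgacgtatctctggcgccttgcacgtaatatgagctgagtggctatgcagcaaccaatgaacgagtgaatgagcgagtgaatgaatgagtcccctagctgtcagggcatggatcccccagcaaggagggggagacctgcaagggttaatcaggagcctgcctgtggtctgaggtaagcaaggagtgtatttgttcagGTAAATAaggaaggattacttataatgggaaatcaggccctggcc
ELF5 chr11:34511829-34511974, minus strand: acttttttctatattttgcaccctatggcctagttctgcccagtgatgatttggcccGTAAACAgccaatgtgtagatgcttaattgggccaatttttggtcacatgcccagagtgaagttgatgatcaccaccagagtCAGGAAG
EHF chr11:34624007-34624256, plus strand: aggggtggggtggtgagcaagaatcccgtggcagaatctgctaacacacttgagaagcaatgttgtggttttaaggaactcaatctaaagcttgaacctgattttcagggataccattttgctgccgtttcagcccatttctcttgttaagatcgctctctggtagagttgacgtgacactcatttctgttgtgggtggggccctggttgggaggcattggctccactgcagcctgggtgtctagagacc
ERF chr19:42255158-42255378, minus strand: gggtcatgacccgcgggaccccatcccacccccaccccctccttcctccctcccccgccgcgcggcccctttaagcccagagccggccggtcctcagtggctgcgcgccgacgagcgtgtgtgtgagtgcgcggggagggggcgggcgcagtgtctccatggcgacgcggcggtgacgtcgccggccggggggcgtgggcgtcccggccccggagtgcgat

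The promoters also differed in base composition. The ratio of observed to expected CpG was 0.39 in SPDEF, 0.19 in ELF3, 0.12 in ELF5 and 0.26 in EHF. It was 0.87 in ETV1, 0.93 in ETV6, 0.66 in ETS2 and 0.92 in ERF. The 4 epithelial genes thus had CpG-poor promoters and the other 4 genes CpG-rich ones (a ratio over 0.6 was found in 47.4% of all promoters). ETV1 fell with a CpG-rich promoter, as did ETV6 by a small amount, so among these 8 genes the split by CpG content was not the split by direction.

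The 3 PEA3 genes each behaved differently. ETV1 (ENSG00000006468.14, chromosome 7, 13891228 to 13991425, minus strand) had 89, 92, 90 and 107 counts in control and 13, 5, 1 and 3 in knockdown, a change from 4.28 CPM ± 0.232 to 0.237 CPM ± 0.22 (n = 4 each, SD). Its log2 fold change was -4.09 (SE 0.604, edgeR adjusted p = 2.02e-11), and -4.91 without knockdown replicate 1, which held most of the knockdown counts. ETV1 lies in a region whose 50 nearest tested genes had a median of -0.57.

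ETV5 (ENSG00000244405.8, chromosome 3, 186046308 to 186110318, minus strand) went the other way. It had 2, 1, 0 and 1 counts in control and 192, 214, 157 and 202 in knockdown, so it was barely detected in control and plainly present in every knockdown library at 8.57 CPM ± 0.616 (SD, n = 4). The ratio of summed counts, scaled for depth, was 189 with an exact interval at the 95% level of 73.5 to 695, which covers counting error only (edgeR adjusted p = 2.83e-19). The fitted log2 fold change of 7.39 depends on the prior count, and ranked 169 from the highest among the tested genes. Its nearest 50 tested genes had a median of -0.18.

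ETV4 (ENSG00000175832.13, chromosome 17, 43527844 to 43579620, minus strand) changed little. It had 6.37, 5.58, 6.84 and 4.83 CPM in control and 4.93, 4.51, 3.97 and 4.53 CPM in knockdown. Knockdown replicate 1 lay above control replicate 4, so the groups overlapped, and the log2 fold change was -0.39 (SE 0.127, edgeR adjusted p = 0.0042). The exact two-sided permutation test gave p = 0.0571 for ETV4, which misses 0.05. Its exons share 68 bp with DHX8 on the opposite strand (mean 834.75 counts).

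The repressors moved apart by small amounts. ERF (ENSG00000105722.10, chromosome 19, 42247572 to 42255157, minus strand) had 42.1, 40.5, 43.7 and 45.5 CPM in control and 57.6, 59.5, 57.9 and 61.8 CPM in knockdown. All knockdown libraries lay above all controls, with a log2 fold change of 0.46 (SE 0.0424, edgeR adjusted p = 1.76e-09). ETV6 (ENSG00000139083.11, chromosome 12, 11649854 to 11895402, plus strand) had 15.3, 15.4, 16.8 and 16.9 CPM in control and 13.8, 13.8, 11.7 and 13.3 CPM in knockdown, a log2 fold change of -0.29 (SE 0.0684, edgeR adjusted p = 0.000649). The 50 tested genes nearest to ETV6 had a median of -0.47, and with that regional shift taken out the fold change of ETV6 turned to 0.18 (edgeR adjusted p = 0.0237).

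ETS2 (ENSG00000157557.13, chromosome 21, 38805307 to 38824955, plus strand), an activator phosphorylated downstream of RAS, was nearly level. It had 42.6, 39.1, 44.4 and 41.3 CPM in control and 48.4, 46.3, 44.2 and 47.8 CPM in knockdown. Knockdown replicate 3 lay just under control replicate 3, the log2 fold change was 0.16 (SE 0.0486, edgeR adjusted p = 0.00529), and the exact two-sided permutation test gave p = 0.0571. Its nearest 50 tested genes had a median of -0.41, and the fold change of ETS2 was 0.56 with that shift taken out.

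Of the 18 ETS genes outside the 10, 14 had counts and 12 passed the filter; ETV3L, FEV, FLI1 and SPIC are not analysed here. The edgeR test called 3 lower (ELF2, ELK3 and ETV3) and 7 higher (ELF1, ELK1, ELK4, ERG, ETS1, ETV7 and GABPA), with ELF4 and ETV2 not past the threshold; 3 of the 10 calls, all higher, were at least 2-fold. The shares, 83.3% called and 25% at 2-fold, were near the 77.1% and 28.3% of all tested genes. Neither ETS1 nor ERG would have passed the filter on its control libraries alone. ETS1, a paralogue of ETS2 found in lymphoid, vascular and invasive tumour cells, had 5, 4, 3 and 3 counts in control and 885, 865, 704 and 831 in knockdown. That is a ratio of 216 (exact 95% counting interval 131 to 387), a log2 fold change of 7.71 (SE 0.167) and an edgeR adjusted p of 8.12e-26. ERG, an endothelial and megakaryocytic factor that lies 144 kb from ETS2, had 0 counts in every control library and 97, 124, 85 and 82 in knockdown. With the floor set at 3 counts per library ERG was at least 31.8-fold higher (edgeR adjusted p = 4.75e-15), while ETS2 beside it changed by the small amount given above. ETV7, a paralogue of ETV6, rose from 1.07 CPM ± 0.204 to 3.92 CPM ± 0.487 and GABPA, a broad activator of housekeeping and mitochondrial genes, from 38.7 CPM ± 4.01 to 74.6 CPM ± 4.72 (n = 4 each, SD; log2 fold changes 1.85 and 0.95, edgeR adjusted p = 3.08e-10 and 2.33e-09). Exons of GABPA share 413 bp with ATP5PF on the opposite strand (mean 3294.62 counts), which leaves its level uncertain.

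**Figure D3:**
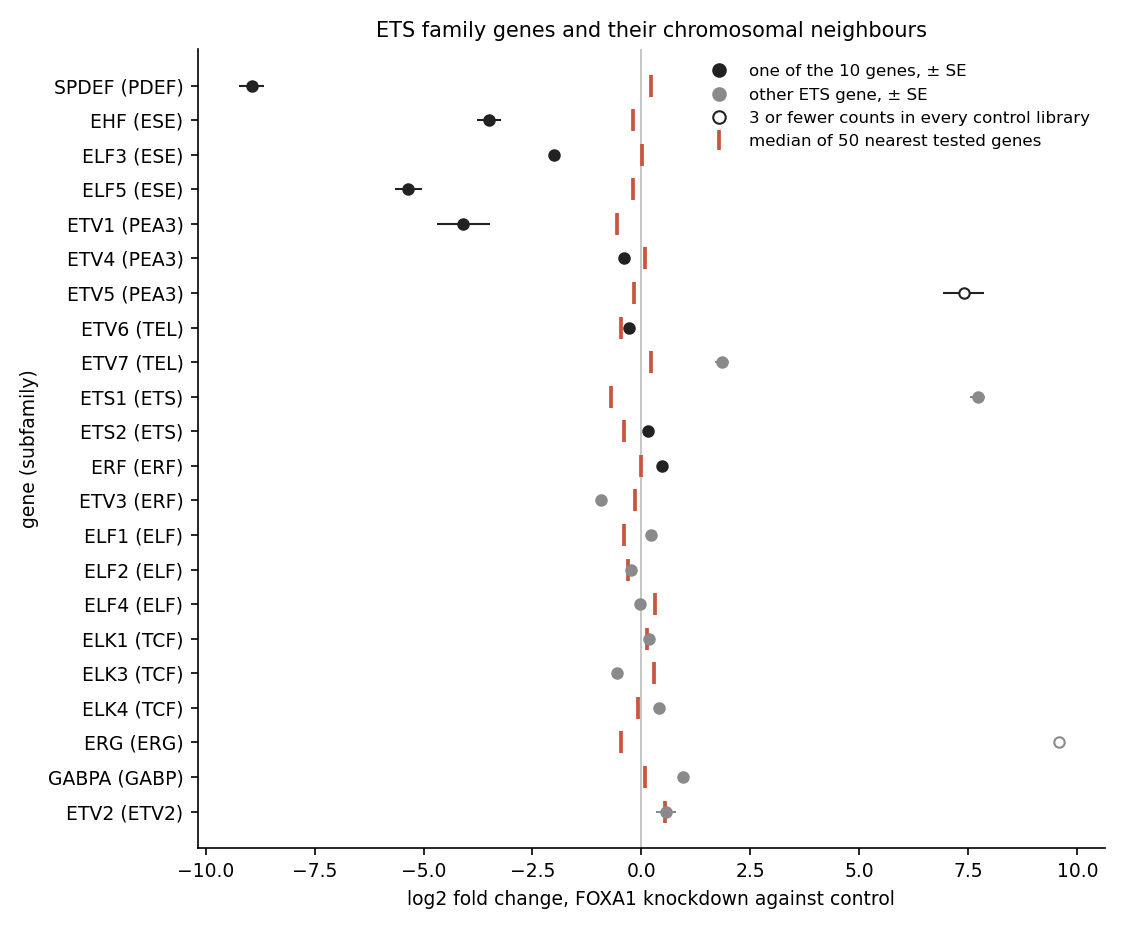
Log2 fold change (knockdown against control, ± SE from 4 libraries per group) of the 22 tested ETS genes, grouped by subfamily; black dots are the 10 genes, grey dots the others, open dots genes whose controls all had at most 3 counts, and red bars the median of the 50 nearest tested genes. Red bars stay between -0.71 and 0.53, while SPDEF lies at -8.94 and ETS1 at 7.71.

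Levels of different genes were compared as CPM per kilobase of exon. In control the order of the 10 genes was SPDEF (105 ± 9.04), ELF3 (65.5 ± 1.52), ERF (13 ± 0.644), ETS2 (9.11 ± 0.487), EHF (3.15 ± 0.151), ETV6 (2.28 ± 0.122), ELF5 (1.78 ± 0.239), ETV4 (1.64 ± 0.245), ETV1 (0.446 ± 0.0242) and ETV5 (0.00776 ± 0.00645; CPM per kilobase, SD, n = 4). In that order only ELF5 and ETV4 had overlapping ranges. In knockdown the order became ERF (18 ± 0.58), ELF3 (16.3 ± 0.259), ETS2 (10.2 ± 0.412), ETV6 (1.86 ± 0.142), ETV5 (1.48 ± 0.106), ETV4 (1.24 ± 0.109), EHF (0.272 ± 0.104), SPDEF (0.208 ± 0.0989), ELF5 (0.0435 ± 0.0182) and ETV1 (0.0246 ± 0.0229; same unit). There EHF and SPDEF overlapped, as did ELF5 and ETV1. SPDEF went from the first to the eighth place and ETV5 from the tenth to the fifth. With each gene's longest transcript as its length, ELF3 stood above ERF in knockdown and ELF5 above ETV6 in control. The order of these pairs thus depends on the length used. SPDEF stayed above ELF3 in control with that length, but by less. The length of ELF3 went from 7191 bp to 4994 bp, and that of SPDEF only from 1914 bp to 1895 bp. In CPM not divided by length, ELF3 stood above SPDEF in control.

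Summed over the 24 ETS genes with counts, the level fell from 262 ± 10.6 to 121 ± 1.87 CPM per kilobase, and the ranges of the groups were far apart (253 to 275 against 119 to 123). The 10 genes made up 76.8% ± 0.998 of that sum in control and 40.8% ± 0.637 in knockdown (n = 4 each, SD). SPDEF alone made up 39.8% ± 1.86 in control and 0.171% ± 0.0819 in knockdown. ERF went from 4.97% ± 0.301 to 14.8% ± 0.347, ETS2 from 3.47% ± 0.0739 to 8.36% ± 0.278, and ETS1 from 0.0091% ± 0.00236 to 4.24% ± 0.157. In the PEA3 group and the ERF group, members moved in opposite directions, and this was not particular to them. Among other close relatives ETV6 fell and ETV7 rose, ELF2 fell and ELF1 rose, and ELK3 fell while ELK1 and ELK4 rose. The PEA3 sum was 2.09 ± 0.228 in control and 2.74 ± 0.178 in knockdown, while ETV1 fell and ETV5 rose within it. The sum of ERF and its close relative ETV3 was 22.7 ± 0.72 and 23.1 ± 0.758, within the spread: ETV3 fell (log2 fold change -0.92, SE 0.0417, edgeR adjusted p = 2.31e-15) and ERF rose. The sum of ELF1, ELF2 and ELF4 was level as well, at 26.7 ± 0.391 in control and 27 ± 0.632 in knockdown.

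**Figure D4:**
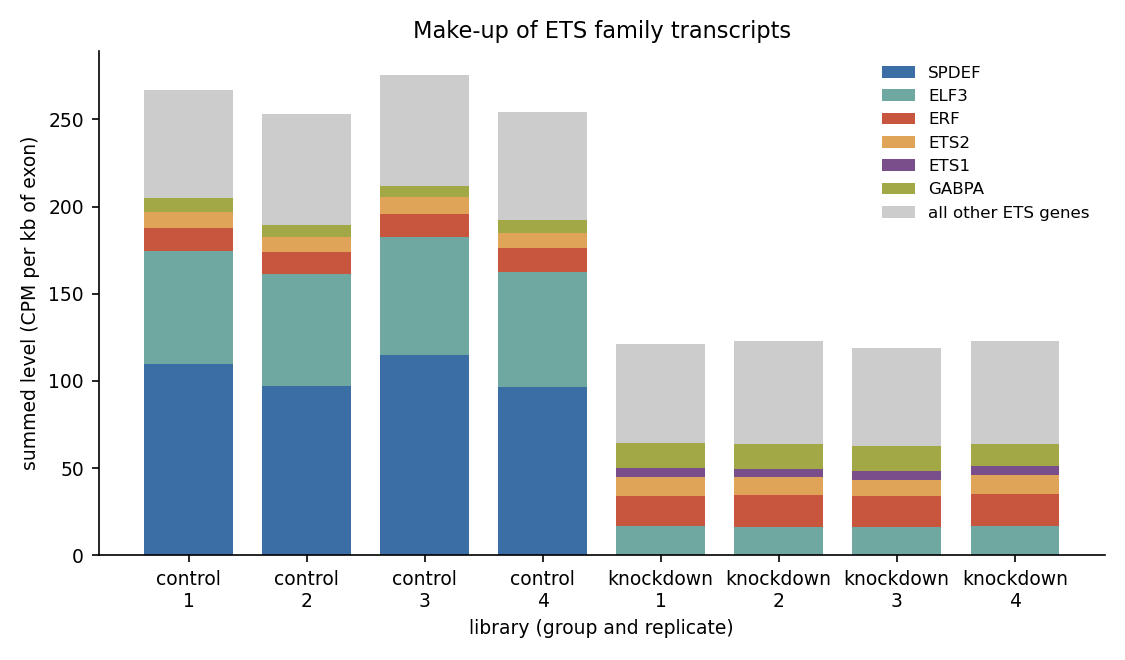
Stacked level of ETS family transcripts in each library, in CPM per kilobase of exon, with the axis starting at 0; colours are genes and grey is the sum of all other ETS genes. The 4 control bars reach 253 to 275 and are mostly SPDEF and ELF3, and the 4 knockdown bars reach 119 to 123 with almost no SPDEF.

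Genes tied to these factors by textbook knowledge were then counted. The lists were chosen with earlier results of these data known. Their shares are thus not an independent comparison with all tested genes. Of 18 genes known as outputs of ERK signalling or of CIC, 17 were tested, and 9 were lower and 4 higher (median log2 fold change -0.16); the share called, 76.5%, was that of the background (77.1%). Calls of 2-fold or more came to 7 lower and 3 higher, 58.8% of the 17 against 28.3% of all tested genes. Among feedback inhibitors of the pathway, the phosphatase genes DUSP4 and DUSP6 fell (log2 fold changes -3.12 and -1.19), as did SPRY4, SPRED1 and SPRY1 (-2.29, -1.93 and -1.73). FOS, an AP-1 subunit, rose from 2.01 CPM ± 0.815 to 26.1 CPM ± 2.89 (n = 4 each, SD). SPRED3, an inhibitor of RAF activation, and EPHA4, an ephrin receptor, rose as well (log2 fold changes 2.32 and 1.56). The largest edgeR adjusted p among these 8 genes was 0.000365, for DUSP6. DUSP6 would not have passed the filter on low counts on its knockdown libraries alone, nor SPRED3 on its controls alone. Other feedback inhibitors of the list were not called lower. SPRED2 was slightly higher (log2 fold change 0.18, edgeR adjusted p = 0.00108). SPRY2 and DUSP5 were not past the threshold (log2 fold changes 0.29 and -0.16, edgeR adjusted p = 0.0969 and 0.152).

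Of 17 genes that act on ETS genes or proteins, all were tested, and 6 were lower and 9 higher (median 0.13). The shares called (88.2%) and at least 2-fold (4 of 17, 23.5%) compare with 77.1% and 28.3% over all tested genes. TRIB2, a pseudokinase that works with the COP1 ubiquitin ligase, had 487, 489, 444 and 453 counts in control and 9, 3, 5 and 6 in knockdown (log2 fold change -6.33, SE 0.319, edgeR adjusted p = 1.43e-22). TRIB2 would not have passed the filter on low counts on its knockdown libraries alone. TRIB1, its paralogue, fell from 43.2 CPM ± 0.783 to 12.3 CPM ± 0.625, and L3MBTL1, a chromatin protein that binds ETV6, rose from 5.25 CPM ± 0.359 to 13.7 CPM ± 1.25 (n = 4 each, SD; edgeR adjusted p = 2.95e-20 and 4.06e-13). CIC, the repressor of the PEA3 genes, was not past the threshold (edgeR adjusted p = 0.442). It had 47.1 CPM ± 3.75 in control and 45.5 CPM ± 2.96 in knockdown (n = 4 each, SD). ATXN1, the remaining regulator called at 2-fold or more, rose (log2 fold change 1.13, edgeR adjusted p = 6.33e-16). ATXN1L fell by a small amount (log2 fold change -0.34, edgeR adjusted p = 6.26e-07).

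Of 11 genes of the secretory programme that SPDEF is known for in goblet cells, only 4 were expressed enough to be tested, and 3 of them fell. A share of 75% called is near the 77.1% of all tested genes (37.7% lower), and 4 genes are too few to describe the programme. The 3 that fell would not have passed the filter on low counts on their knockdown libraries alone. They could thus hardly have come out higher. AGR2, a disulfide isomerase of secretory cells, had 442, 432, 394 and 444 counts in control and 11, 9, 10 and 8 in knockdown (log2 fold change -5.49, SE 0.117, edgeR adjusted p = 6.14e-23). CREB3L1, a factor of the secretory pathway, had 49, 57, 60 and 33 counts and then 1, 0, 0 and 2 (log2 fold change -5.85, edgeR adjusted p = 1.91e-11, and -6.80 without knockdown replicate 4). The trefoil factor gene TFF3 had 14 to 18 counts in the controls and none in the knockdown libraries, at least 5.12-fold lower (edgeR adjusted p = 1.46e-08). The mucin gene MUC16 was not past the threshold (25.6 CPM ± 0.81 and 30.4 CPM ± 5.4, n = 4 each, SD; edgeR adjusted p = 0.105); without knockdown replicate 1 all 4 tested genes were called, 3 lower and 1 higher. Without the filter on low counts 5 genes of the list were called, 3 lower and 2 higher.

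Of 12 genes of prolactin signalling and lactation, the setting of ELF5, 5 were tested, and 3 were lower and 2 higher (median -1.10), beside 37.7% lower and 39.4% higher over all tested genes. The prolactin receptor gene PRLR rose from 113 CPM to 159.6 CPM, and STAT5B fell from 105 CPM to 48.9 CPM (edgeR adjusted p = 3.80e-09 and 4.62e-18). STAT5A, which relays the prolactin signal, fell from 4.98 CPM ± 0.168 to 1.29 CPM ± 0.229 and XDH, an enzyme of milk fat secretion, from 0.822 CPM ± 0.21 to 0.353 CPM ± 0.101, while the folate receptor gene FOLR1 rose from 1.82 CPM ± 0.214 to 29.1 CPM ± 0.685 (n = 4 each, SD; edgeR adjusted p = 5.29e-12, 0.000992 and 2.8e-23). Of 12 protease and invasion genes often named as targets of PEA3 factors or ETS2, 3 were tested, with 1 lower and 2 higher, too few to set against the 77.1% called over all tested genes. MMP13, a collagenase, had 17, 25, 24 and 26 counts in control and 0, 0, 0 and 1 in knockdown (log2 fold change -5.96, edgeR adjusted p = 4.09e-10, and -7.54 without knockdown replicate 4). MMP13, like XDH above, would not have passed the filter on low counts on its knockdown libraries alone. MMP9, a gelatinase, rose from 0.519 CPM ± 0.127 to 1.12 CPM ± 0.0371 and PLAUR, the urokinase receptor, from 7.2 CPM ± 0.475 to 10.1 CPM ± 0.844 (n = 4 each, SD; edgeR adjusted p = 0.00031 and 2.16e-05). Without the filter 5 protease genes were called, 2 lower and 3 higher.

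**Figure D5:**
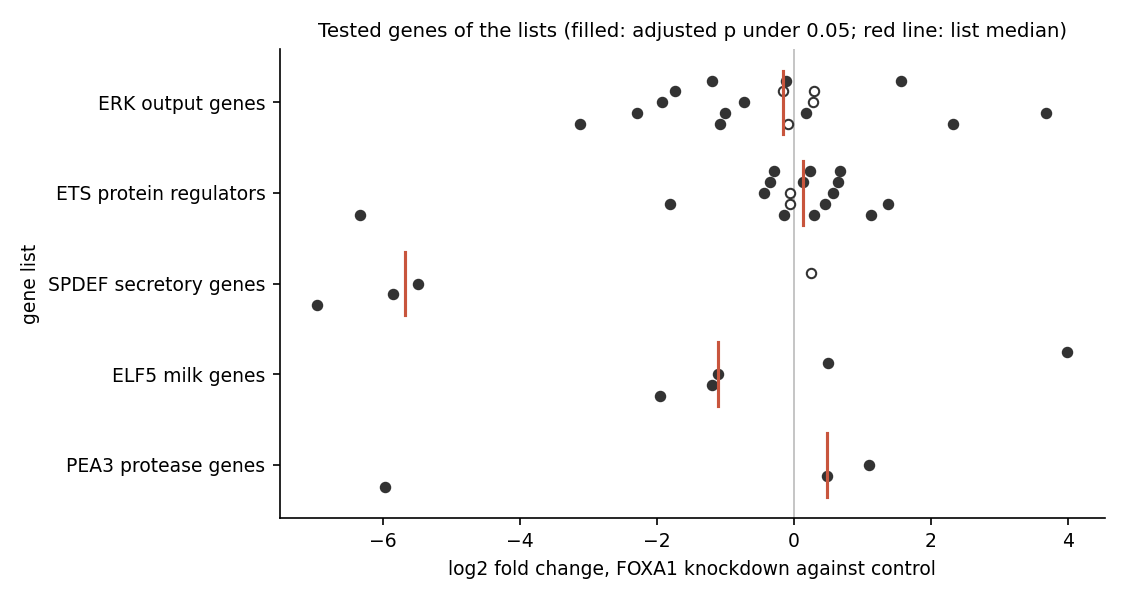
Log2 fold change (knockdown against control) of the tested genes in 5 lists tied to ETS factors; dots are genes, filled where the edgeR adjusted p was under 0.05, and red lines are list medians. The ERK output and regulator lists spread to both sides of 0, and 3 of the 4 tested SPDEF secretory genes lie below -5.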

How the data were processed

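RNA from 4 control and 4 FOXA1 knockdown SKBR3 libraries was extracted with Trizol and sequenced as paired-end reads after a standard mRNA protocol, per the labels' protocols. The authors deposited whole read counts per gene. The submitters' processing notes name FastQC, Salmon 1.9, DESeq2 and the build hg38 with no role stated; Salmon estimates counts, so the whole numbers may be rounded estimates. Which annotation was used, and whether strand was, is not given in the sources used here.

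Groups come from sample titles. Of the 30434 genes, 29358 (96.5%) were matched to GENCODE 29 on GRCh38 by Ensembl identifier for positions and exon lengths. Where a symbol had several identifiers, the one annotation pairs with it was used. Counts were analysed in R 4.3.3 with edgeR 4.0.16: filterByExpr (minimum 10 counts, total 15; 16430 genes kept), TMM scaling, glmQLFit with robust estimation, glmQLFTest and Benjamini-Hochberg adjustment over all tested genes, with a threshold of 0.05. Standard errors come from log2 CPM with 0.5 added to each count. The procedure was run on simulated counts in which few genes changed and all had the same dispersion. That run does not cover data in which most genes differ. Members and lists were chosen with earlier results of these data known. Named genes are the 10 members, FOXA1, tested ETS genes (in full the 4 largest changes), and per list the 3 largest changes and calls over 2-fold against its majority. CIC, ATXN1, ATXN1L, MUC16, SPIB, SPI1, the marker genes and the values of ETV2 and ETV3 were added after their values were seen. So were DUSP5, DUSP6, SPRY1, SPRY2, SPRY4, SPRED1, SPRED2, PRLR and STAT5B. Alternatives were other scalings, filters, DESeq2 1.42.0, limma 3.58.1 (voom), no robust estimation, a replicate block, adjusted p under 0.01, a test against 2-fold, removal of the regional shift (median of the 50 nearest tested genes), other lengths, and leaving out each library.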

Additional observations from a re-analysis of the deposited data

Results flagged for a closer look

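In each group of 4 libraries, the lowest and highest values were set against Dixon's criterion, which compares the distance to the next library with the range of all 4. Over 43 groups of values of ETS genes this marked 3 values, where chance gives about 2.15, in 3 different libraries. SPDEF was high in knockdown replicate 1, at 0.68 CPM (16 counts) against 0.278 to 0.328 CPM in the others. ELK3 was low in control replicate 4, at 11.7 CPM against 13.3 to 13.5 CPM. GABPA was low in knockdown replicate 4, at 67.6 CPM against 76.5 to 77.2 CPM. Without knockdown replicate 1 the log2 fold change of SPDEF was -9.33, and leaving out each library in turn kept it between -9.33 and -8.80.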

How the results depend on the processing

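Over 20 alternatives for each of the 10 genes, 195 of 200 values kept their direction and side of the threshold. The exceptions were ETV4, ETV6, ETS2 and ERF in the test against a 2-fold change, and ETV6, which turned to 0.18 with the regional shift removed. That setting also turned ELF2 to 0.06, and ELF4 turned to 0.02 when scaled by the upper quartile and 0.04 when scaled by library size alone. The median of all genes moved by at most 0.084 (log2) under the other scalings.

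The test against a 2-fold change called 3863 genes in all, 6 of the 10 ETS genes, 3 other ETS genes, 8 ERK output genes, 4 regulators, 3 milk genes and 1 protease gene. With no filter on low counts 7101 genes were called with at least 2-fold change, and 2912 with a mean of at least 50 counts. The secretory and protease lists each gave 5 calls with no filter and with DESeq2, and 1 call with the mean of 50 counts.

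With CPM not divided by length, 4 genes had another place in the order of levels in each group, and with the longest transcript 2 did in each group. With the longest transcript the summed level of the 10 genes was 240 in control and 64.1 in knockdown, and of all ETS genes 315 and 152, and SPDEF made up 33.5% of the control sum. With library size only the knockdown sums were 51 and 125. Replicate numbers did not pair the libraries (correlations of same-numbered deviations were between -0.0307 and 0.0563); with a replicate block 12453 genes and all 10 ETS genes were called. Low counts limit ELF5, ETV1 and SPDEF in knockdown and ETV5 in control.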

Other observations

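The ETS genes SPIB, SPI1 and ETV2 were close to the floor of detection in both groups. SPIB, a lymphoid factor, had 2, 10, 9 and 4 counts in control and 10, 10, 7 and 7 in knockdown, and SPI1, a myeloid factor, had at most 3 counts in any library; neither was tested. ETV2, a factor of early blood vessel development, had 8 to 12 counts in control and 10 to 19 in knockdown, and was not past the threshold (log2 fold change 0.57, edgeR adjusted p = 0.0762), but without knockdown replicate 4 its log2 fold change was 0.72 and it passed (edgeR adjusted p = 0.0331). ELF4, ELK4, ELF2, ELF1, ELK1 and ELK3 were well expressed, with control means of 57.4, 59.2, 40.9, 37.6, 29.9 and 13 CPM and knockdown means of 55.7, 77.9, 34.8, 43.4, 33.6 and 8.8 CPM in that order.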
